A study of Mus musculus with 12 samples.

Results

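BMP and TGF-beta signalling was followed through 49 genes of the pathway in mouse femur: 11 BMP and GDF ligands, 5 TGF-beta and activin ligands, 12 receptors, 8 Smads, 7 inhibitors, 4 Id targets and 2 Smurf ubiquitin ligases. The genes were taken by symbol from a list of the pathway. All 49 were found among the 18335 gene symbols shared by the deposited tables of the diaphysis and the metaphysis, and transcripts of a gene were summed. Messenger RNA had been sequenced from the femurs of male mice aged 5 weeks and of mixed background. The 4 groups, each of 3 libraries, were diaphysis WT, diaphysis Dlx3Oc-cKO, metaphysis WT and metaphysis Dlx3Oc-cKO. The diaphysis is the bone shaft and the metaphysis the flared end beside the growth plate. Titles of the metaphysis libraries, unlike those of the diaphysis, carry the letters GP, which are not spelled out. How much growth plate these samples hold is not stated. WT stands for Dlx3+/+ in the series title, and cKO, as used from here on, for mice that lost the homeobox gene Dlx3 conditionally. Oc refers, as is known of the study, to the osteocalcin promoter, which drives the Cre recombinase in osteoblasts. The labels do not say which cells of the bone lost the gene. Whether the WT mice carry the Cre transgene is not stated. Nor do the labels state that the libraries of a group are separate animals, so a p-value measures the spread between these libraries, which may be technical.

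BMPs and TGF-betas are secreted dimers that bind pairs of type I and type II serine/threonine kinase receptors. The activated type I receptor phosphorylates Smad1, Smad5 and Smad9 on the BMP branch or Smad2 and Smad3 on the TGF-beta and activin branch, and these join Smad4 and enter the nucleus. Secreted antagonists such as noggin, gremlin and follistatin hold ligands back, Smad6 and Smad7 and the Smurf ligases damp the signal inside the cell, and the Id genes are among its fastest targets. In bone, BMPs drive the commitment and maturation of osteoblasts, while TGF-beta is stored in the matrix and released when bone is resorbed.

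Dlx3 itself measured 8.37, 8.90 and 10.1 RPKM (read number divided by transcript length and library size) in metaphysis WT and 1.98, 2.80 and 3.24 in metaphysis cKO. In the diaphysis it measured 3.22, 7.64 and 13.1 RPKM in WT and 0.763, 1.55 and 1.17 in cKO, so the genotypes did not overlap in either region. Library depth, estimated from the spacing of the lowest values, was 24.5 to 34.4 M reads (M, mega) for metaphysis libraries and 18.4 to 53.4 M for diaphysis libraries. At these depths 10 reads on a transcript of 2 kb are worth 0.0936 to 0.272 RPKM. The depths are approximate, as 72.2% to 77.0% of low values per library lay within 0.1 of a whole read number. Cartilage and growth plate markers summed to 611 to 861 RPKM in metaphysis WT and to 43.1 to 205 in diaphysis WT, and osteoblast markers were present in all 12 libraries. Diaphysis WT replicate 1 stood furthest apart. Its osteoblast markers summed to 4592 RPKM against 18902 and 26948 in the other diaphysis WT libraries. Globin took 32.6% of its summed RPKM against 17.9% and 15.1%. Diaphysis cKO replicate 1 leaned the same way, though less far. Its osteoblast markers summed to 10958 RPKM against 15771 and 13529 in the other diaphysis cKO libraries. Globin took 26.5% there against 15.3% and 18.7%.

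The wild-type femur transcribed most of the pathway. RPKM is a value per length, so genes can be ranked by it. Id3, Tgfb1 and Tgfbr2 led the order in both regions. Id3, whose product blocks basic helix-loop-helix transcription factors, stood first with 204, 146 and 191 RPKM in metaphysis WT and 54.4, 125 and 116 in diaphysis WT. Tgfb1, the main TGF-beta of bone matrix, measured 93.9, 63.3 and 88.0 RPKM in metaphysis WT and 68.7, 78.6 and 60.7 in diaphysis WT. In the metaphysis these 2 genes did not overlap with each other or with Tgfbr2 (28.8, 27.4 and 29.2 RPKM), whereas in the diaphysis Id3 and Tgfb1 did. Below them the order was less firm: Id2, Id1 and Tgfbr1 followed in the metaphysis at means of 24.1, 22.5 and 20.04 RPKM and their libraries overlapped.

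Among BMP and GDF ligands Bmp3 was the most abundant in WT, with a mean of 11.9 RPKM in the metaphysis and 15.6 in the diaphysis, followed by Bmp5 at 5.90 and 7.28 RPKM. Bmp8b, Gdf5, Gdf6, the BMP receptor gene Bmpr1b, the activin receptor gene Acvr2b and the noggin gene Nog did not reach 1 RPKM in 3 of the 6 libraries of either region and were not tested. Fstl3, a follistatin relative, was not tested in the metaphysis. Gdf6 was the lowest member, between 0.0103 and 0.0457 RPKM in the metaphysis, and it was listed at 0 in WT replicate 1 and cKO replicate 1 of the diaphysis. Nog measured 0.788, 0.584 and 0.624 RPKM in metaphysis WT and 1.22, 1.19 and 0.856 in metaphysis cKO. After this filter 42 members could be tested in the metaphysis and 43 in the diaphysis.

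**Figure D1:**
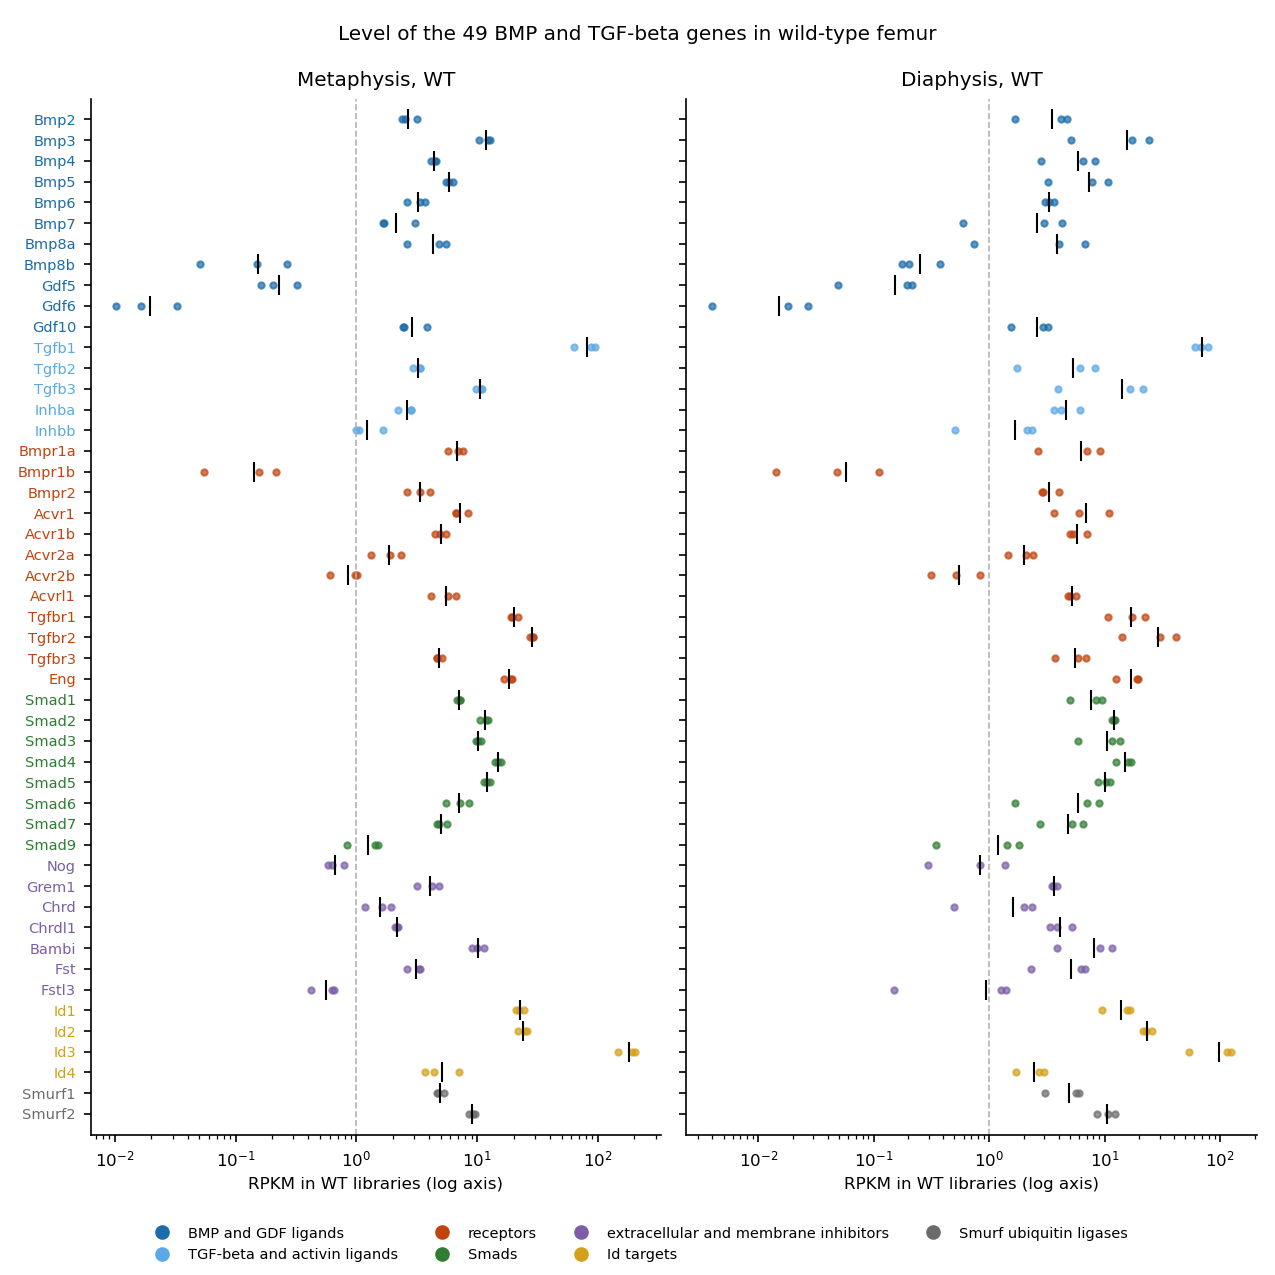
RPKM (log axis) of the 49 genes in the 3 WT libraries of each region, with points for libraries, a black tick for the mean and a dashed line at the filter of 1 RPKM; colours give the class. Id3 and Tgfb1 lie furthest right in both regions and Gdf6 furthest left, and diaphysis WT replicate 1 is the low point of many rows.

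In the metaphysis 12 members rose in cKO and 0 fell. They were the ligands Bmp2, Bmp3, Bmp8a and Tgfb3, the receptors Acvr1, Tgfbr2 and Eng, and the signal carrier Smad3 with its inhibitor Smad7. The targets Id1 and Id3 and the ligase Smurf1 completed the list. Of the Smads that carry BMP signals, none passed. The secreted and membrane inhibitors were the class with no call. Rises ranged from 0.41 for Smurf1 to 2.02 for Bmp8a on the log2(RPKM + 0.1) scale, a scale that understates the change of low genes. By limma with Benjamini-Hochberg adjustment over all genes and a threshold of 0.05, 12 of 42 members passed, or 28.6%, where 7.51% of the 12641 genes tested were called higher in cKO, 3.89% lower and 11.4% in either direction. At an unadjusted p under 0.05 the members counted 25 of 42 and all genes 30.6%. All 3 cKO libraries lay above all 3 WT libraries for 24 members (57.1%; 18.7% of all genes) and below them for 1 member, Grem1 (2.38%; 18.4% of all genes). The median log2 fold change of the members was 0.33 and 34 of 42 were above 0, against a median of -0.036 and 5698 of 12641 for all genes. The count of 12 became 4, 4 and 7 without WT replicates 1, 2 and 3, where 1.5%, 1.94% and 5.35% of all genes were called. It became 10, 8 and 3 without cKO replicates 1, 2 and 3, where 11.3%, 9.65% and 0.839% of all genes were called. In a single fit of all 12 libraries, whose spread includes that of the diaphysis, 0 members and 0.0633% of all genes were called. Bmp3, Bmp8a and Tgfbr2 passed in each of the 6 fits that left out a metaphysis library, Id3 in 5 and Smurf1 in 0.

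**Figure D2:**
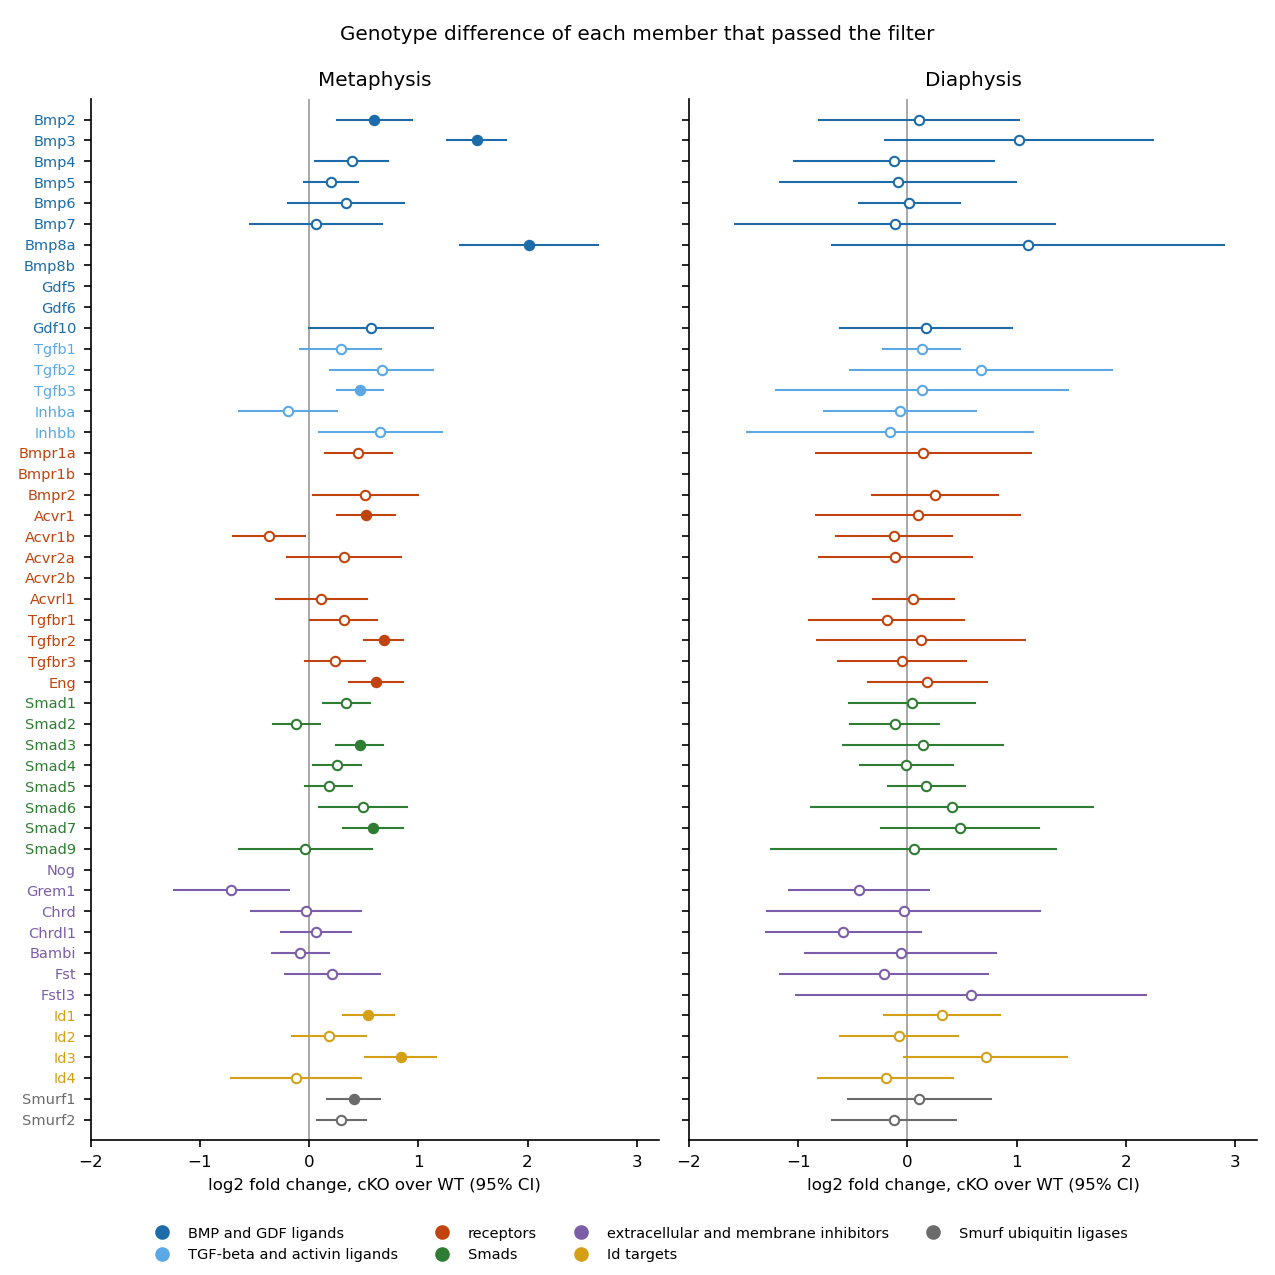
Log2 fold change of cKO over WT (x axis) for each member that passed the filter, with 95% confidence intervals from limma; filled points passed the adjusted threshold, open points did not, and rows without a point were not tested. The 12 filled points are all in the metaphysis panel and right of 0, and the intervals of the diaphysis panel are wider.

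Of the ligands, 3 of 8 tested BMP and GDF genes rose (37.5%; 7.51% of all genes). All 8 fold changes were above 0, as were 45.1% of all genes, and their median was 0.48. Bmp3, a BMP made by osteoblasts that is known to oppose other BMPs and to limit bone mass, measured 12.4, 10.3 and 12.9 RPKM in WT and 31.4, 36.2 and 35.8 in cKO. The groups were far apart, and the log2 fold change was 1.53 ± 0.11 (SE; limma, adjusted p = 0.00369). The gene lies on chromosome 5 (99283458 to 99309979, plus strand, mm9). Bmp2, one of the strongest inducers of bone formation, went from 2.39, 2.51 and 3.196 RPKM to 3.83, 4.38 and 4.10 (log2 0.60 ± 0.15, adjusted p = 0.0428). Its groups did not overlap, but it passed in 1 of the 6 fits that left out a library, with adjusted p from 0.0431 to 0.129.

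Bmp8a had the largest fold change of the members, and its near copy Bmp8b stayed close to nothing. Bmp8a (chromosome 4, 122989888 to 123020495, minus strand, mm9) measured 5.47, 2.60 and 4.86 RPKM in WT and 18.5, 18.3 and 14.3 in cKO (log2 2.02 ± 0.27, adjusted p = 0.0117). Every cKO library was above every WT library. Bmp8b (chromosome 4, 122782408 to 122809342, plus strand) measured 0.0507 to 0.307 RPKM over the 6 libraries. The coding sequences of the pair in GENCODE vM1 are 1200 bases each and share 1056 of them, 88%, with a longest shared run of 182 bases (positions 451 to 632), so reads could be split between them only where they differ. A window of 60 bases (positions 133 to 192) with 16 differences, in capitals, is printed to show where the copies can be told apart.
Bmp8a: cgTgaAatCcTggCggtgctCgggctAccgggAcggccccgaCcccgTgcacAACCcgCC
Bmp8b: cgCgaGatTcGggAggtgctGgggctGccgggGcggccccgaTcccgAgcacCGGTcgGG
How the submitters' counting placed reads of the shared runs is not given in the sources used here, so the level of each copy is uncertain.

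The other BMP ligands did not pass. Bmp4 measured 4.11 to 4.59 RPKM in WT and 4.92 to 6.94 in cKO (log2 0.39 ± 0.14, adjusted p = 0.115), and Bmp5 5.54 to 6.33 and 6.41 to 7.47 (0.20 ± 0.11). For these 2 genes the groups did not overlap. Bmp6, Bmp7 and Gdf10 overlapped, with fold changes of 0.34, 0.061 and 0.57. Summed over the 11 genes of the class, BMP and GDF transcripts went from 37.8 ± 3.58 RPKM in metaphysis WT to 79.6 ± 3.84 in cKO (SD, n = 3), and Bmp3 and Bmp8a made up most of that difference.

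Tgfb3, the TGF-beta isoform best known from palate and tendon development, was the member of its class that rose. It measured 10.8, 11.0 and 9.69 RPKM in WT and 14.0, 15.0 and 14.6 in cKO, without overlap (log2 0.47 ± 0.09, adjusted p = 0.0230, 2 of 6 fits past without a library). Tgfb1, by far the most abundant ligand, went from 93.9, 63.3 and 88.0 RPKM to 101, 89.6 and 107, and the groups overlapped (0.29 ± 0.16, adjusted p = 0.258). Its 95% interval of -0.08 to 0.66 leaves room for a rise as large as that of Tgfb3. Tgfb2 was above all WT libraries in all cKO libraries (2.92 to 3.35 and 3.94 to 6.88 RPKM, 0.67 ± 0.20, adjusted p = 0.0721). The activin subunit genes Inhba and Inhbb had fold changes of -0.19 and 0.65 and did not pass either.

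Among the 10 tested receptors 3 rose (30%; 7.51% of all genes), and 9 had fold changes above 0 (90%; 45.1% of all genes). Tgfbr2, the type II receptor that all 3 TGF-betas need, was the most abundant receptor and the tightest of the calls. It measured 28.8, 27.4 and 29.2 RPKM in WT and 45.2, 46.3 and 45.7 in cKO (log2 0.68 ± 0.07, adjusted p = 0.00907; chromosome 9, 115993415 to 116084383, minus strand). The group means of 28.5 ± 0.97 and 45.7 ± 0.54 RPKM (SD, n = 3) were many SDs apart. Both RefSeq transcripts of Tgfbr2 took part: their means went from 12.3 to 19.9 and from 16.1 to 25.9 RPKM. Endoglin (Eng), a co-receptor for TGF-betas and BMPs that is abundant in endothelial cells, measured 16.7, 19.3 and 18.9 RPKM in WT and 25.2, 28.4 and 30.6 in cKO (0.61 ± 0.11, adjusted p = 0.0180), again with the groups apart. Acvr1, a BMP type I receptor whose activating mutations cause bone to form in muscle, went from 6.73, 6.71 and 8.38 to 9.97, 10.7 and 10.7 RPKM (0.52 ± 0.11, adjusted p = 0.0312). Eng passed in 3 and Acvr1 in 2 of the 6 fits that left out a library.

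Tgfbr1, the type I partner of Tgfbr2, measured 19.2, 19.0 and 21.9 RPKM in WT and 29.5, 24.5 and 21.5 in cKO, where cKO replicate 3 fell among the WT libraries (0.32 ± 0.13, adjusted p = 0.150). The BMP receptors Bmpr1a (0.45 ± 0.13, adjusted p = 0.0648) and Bmpr2 (0.52 ± 0.21, adjusted p = 0.141) had all cKO libraries above all WT libraries. The activin receptor gene Acvr1b was the receptor with a value below 0, at 4.98 RPKM in WT and 3.85 in cKO on average (-0.36 ± 0.14, adjusted p = 0.132). Acvr2a, Acvrl1 and Tgfbr3 lay between 0.11 and 0.32. Summed receptor transcripts were 100.1 to 105 RPKM in WT and 139 to 144 in cKO.

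**Figure D3:**
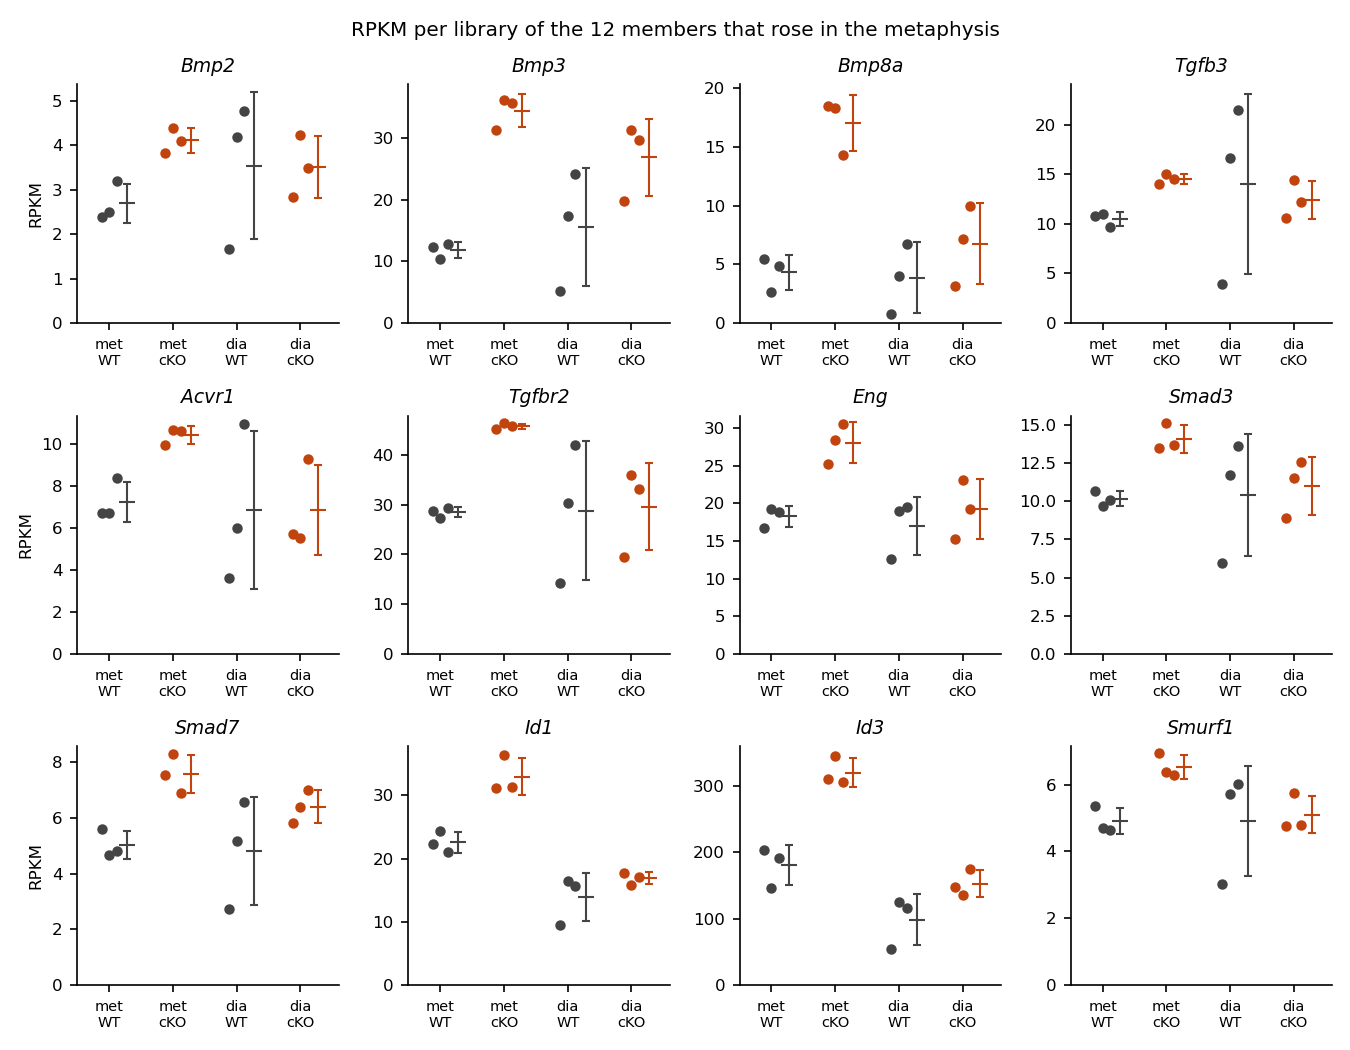
RPKM of the 12 members that rose in the metaphysis, one point per library (met, metaphysis; dia, diaphysis; grey WT, orange cKO), with the mean and SD of 3 libraries beside them and axes from 0. Metaphysis cKO lies above metaphysis WT in every panel, whereas the diaphysis genotypes overlap in every panel but that of Id3, with WT replicate 1 the lowest diaphysis library in each.

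Of the 8 Smads, Smad3 and Smad7 rose (25%; 7.51% of all genes). Smad3, which carries TGF-beta and activin signals, measured 10.7, 9.70 and 10.1 RPKM in WT and 13.5, 15.1 and 13.6 in cKO (log2 0.47 ± 0.09, adjusted p = 0.0239). Smad7, an inhibitory Smad that TGF-beta itself induces, measured 5.60, 4.66 and 4.82 RPKM in WT and 7.56, 8.29 and 6.90 in cKO (0.58 ± 0.12, adjusted p = 0.0260). Neither gene overlapped between genotypes, and Smad3 passed in 2 and Smad7 in 1 of the 6 fits without a library. Smad2, the partner of Smad3 on the same branch, measured 12.2, 10.6 and 11.7 RPKM in WT and 10.4, 10.9 and 10.5 in cKO (-0.12 ± 0.09, adjusted p = 0.432). Smad1 (0.34 ± 0.09, adjusted p = 0.0555), Smad4 (0.26 ± 0.10, adjusted p = 0.121), Smad5 (0.18 ± 0.09, adjusted p = 0.236) and the inhibitory Smad6 (0.50 ± 0.17, adjusted p = 0.102) had every cKO library above every WT library and did not pass. Smad9 was low at 0.832 to 1.51 RPKM over the 6 libraries and overlapped.

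The inhibitors were the class whose summed level hardly differed, at 20.9 to 24.1 RPKM in metaphysis WT and 21.5 to 22.04 in cKO. Bambi was the largest part of that sum. The median fold change was -0.028 over the 5 tested. Nog and Fstl3, too low to be tested, had higher means in cKO. Nog went from 0.666 to 1.09 RPKM with the groups apart, and Fstl3 from 0.565 to 1.26 with overlap. Grem1, the BMP antagonist gremlin, measured 4.20, 3.18 and 4.86 RPKM in WT and 3.03, 1.85 and 2.51 in cKO. It was the member whose cKO libraries all lay below the WT libraries (log2 -0.71 ± 0.22, adjusted p = 0.0807), and it did not pass. Bambi, a pseudoreceptor without a kinase that blocks TGF-beta and BMP receptors, overlapped at 9.04 to 11.4 and 9.11 to 10.2 RPKM (-0.078 ± 0.11). Follistatin (Fst), which binds activins, overlapped at 2.62 to 3.37 and 2.80 to 4.08 RPKM (0.21 ± 0.18). Chordin (Chrd) and its relative Chrdl1 had fold changes of -0.028 and 0.064.

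Id1 and Id3 rose, and Id2 and Id4 did not pass. Id3 (chromosome 4, 135699412 to 135701670, plus strand, mm9) went from 204, 146 and 191 RPKM to 310, 344 and 305 (log2 0.84 ± 0.14, adjusted p = 0.0168). Without cKO replicate 3 its adjusted p was 0.0571, and in the other 5 such fits it passed. Id1 went from 22.2, 24.3 and 21.1 RPKM to 31.1, 36.4 and 31.4 (0.54 ± 0.10, adjusted p = 0.0209, 2 of 6 fits past without a library). For both genes the genotypes were apart. Id2 measured 25.7, 24.8 and 21.8 RPKM in WT and 25.3, 33.8 and 24.0 in cKO (0.18 ± 0.14, adjusted p = 0.424), and Id4 3.67 to 7.12 and 3.64 to 5.29 (-0.12 ± 0.25), each with overlap. Summed Id transcripts were 199 to 256 RPKM in WT and 364 to 420 in cKO, most of them Id3.

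As Id genes are classic direct targets of Smads, the 250 bases before the start of Id3, which rose, are shown beside those of Id2 and Id4, which did not pass (RefSeq, GRCm38.p6, 5′ to 3′ on the gene's strand). Capitals mark CAGAC, the core of the Smad3 and Smad4 element, and GGCGCC and GGAGCC, GC-rich sequences of BMP Smads, on either strand. The promoters lie at chr4:136143572-136143821 (plus strand), chr12:25096093-25096342 (minus strand) and chr13:48260866-48261115 (plus strand).
Id3: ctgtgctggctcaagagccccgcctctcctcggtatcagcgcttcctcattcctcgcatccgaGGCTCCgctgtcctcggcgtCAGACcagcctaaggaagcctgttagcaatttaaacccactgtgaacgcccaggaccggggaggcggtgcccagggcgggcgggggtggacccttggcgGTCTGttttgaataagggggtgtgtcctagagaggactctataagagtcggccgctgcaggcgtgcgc
Id2: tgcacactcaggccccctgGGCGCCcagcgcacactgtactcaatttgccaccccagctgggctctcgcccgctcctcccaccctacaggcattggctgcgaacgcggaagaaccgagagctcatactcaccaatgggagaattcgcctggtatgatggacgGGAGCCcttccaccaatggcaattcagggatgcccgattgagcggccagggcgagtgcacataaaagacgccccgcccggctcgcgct
Id4: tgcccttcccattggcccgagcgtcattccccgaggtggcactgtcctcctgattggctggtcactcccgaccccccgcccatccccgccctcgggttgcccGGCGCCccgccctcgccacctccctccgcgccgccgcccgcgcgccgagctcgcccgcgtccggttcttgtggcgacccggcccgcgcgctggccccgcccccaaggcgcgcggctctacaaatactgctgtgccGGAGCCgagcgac
The Id3 window held CAGAC 2 times, GGCGCC 0 times and GGAGCC 1 time, while those of Id2 and Id4 each held 0, 1 and 1, and no marked stretch overlapped another. Of 49 members 33 matched a promoter entry. Id1, which also rose, had none, so the printed windows hold 1 risen Id gene and no link with the rise was tested. CAGAC was found in 16 of these (48.5%) and in 42.2% of all 32841 promoter entries of that length, GGCGCC in 9 (27.3%) and 9.59%, and GGAGCC in 18 (54.5%) and 26.0%. Members were counted with 1 entry per gene, whereas the background took every entry, also several of a gene. The 2 shares are thus of unlike units and were not tested against each other. TAATT, the core bound by homeodomains such as that of Dlx3, was found in 4 of 33 (12.1%), in 25.03% of all promoter entries, and in none of the 3 printed. Among the 7 risen members with an entry, CAGAC was found in 5 (Bmp8a, Eng, Id3, Smurf1 and Tgfbr2), GGAGCC in 4, and GGCGCC and TAATT in 0. These matches describe letters in a window and not bound sites.

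Smurf1, a ligase that marks BMP Smads and receptors for degradation, was the weakest of the calls. It measured 5.35, 4.71 and 4.65 RPKM in WT and 6.94, 6.37 and 6.28 in cKO, without overlap (log2 0.41 ± 0.10, adjusted p = 0.0490). Leaving out any of the 6 libraries ended the call (adjusted p = 0.0762 to 0.141), and its more abundant transcript alone had a fold change of 0.23. Smurf2 measured 8.56 to 9.63 RPKM in WT and 10.7 to 12.05 in cKO, also without overlap (0.30 ± 0.09, adjusted p = 0.0836).

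Marker genes of several cell types moved with genotype in the same metaphysis libraries, and in bulk tissue fewer cells of a type and less RNA per cell cannot be told apart. For comparison with the counts below, 7.51% of all genes tested rose and 3.89% fell. Osteoblast markers rose for 6 of 9 (summed 14394 to 18775 RPKM in WT and 22854 to 24269 in cKO), osteoclast markers for 5 of 6 (2119 to 2688 and 3991 to 4547), endothelial markers for 6 of 8 (116 to 119 and 172 to 179) and chondrocyte markers for 5 of 8 (611 to 861 and 1256 to 1999). Erythroid markers fell for 4 of 8 (1115 to 1349 and 475 to 850 RPKM), B lymphoid markers for 4 of 7 (329 to 414 and 214 to 264) and megakaryocyte markers for 2 of 6 (607 to 760 and 371 to 502). Osteocyte markers passed for 0 of 4 tested (226 to 352 and 393 to 571 RPKM), neutrophil markers for 0 of 7 (7545 to 12840 and 7037 to 10059) and adipocyte markers for 0 of 4 tested (130 to 320 and 126 to 174). Muscle markers fell for 1 of 6 (4755 to 7144 and 2093 to 8079), and tendon and periosteum markers rose for 1 of 4 (97.4 to 207 and 101 to 146). Globin took 19.0% to 22.1% of the summed RPKM in WT and 13.5% to 17.2% in cKO. With values rescaled without globin, 10 of 45 members (22.2%) and 7.87% of 14042 genes passed. The rescaling let more genes past the filter than the 42 members and 12641 genes of the main fit, so the counts cover unlike sets. The fold changes of the 12 risen members were 0.42 to 2.04 after rescaling and 0.41 to 2.02 in the main fit. Of the markers, the adipocyte gene Lep was listed at 0 in cKO replicate 2 and no other marker was at 0 in a metaphysis library. Beside Eng, which went from a mean of 18.3 to 28.1 RPKM, the endothelial sum went from 117 to 175. Beside Bmp3, which went from 11.9 to 34.4 RPKM, the osteoblast sum went from 16694 to 23593. Most of that sum is the collagen genes Col1a1 and Col1a2, which did not pass, and the median log2 fold change of the 9 osteoblast markers was 1.00, with Alpl at 1.23, Phospho1 at 1.25 and Spp1 at 1.35. The part of these markers in the members' results was not tested.

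Around the 49 genes, 90 others of the pathway were listed, 88 were in the metaphysis table and 63 were tested. Of these 15 rose (23.8%; 7.51% of all genes), 2 fell (3.17%; 3.89% of all genes) and 46 did not pass. The median log2 fold change was 0.23. The list for storage and release of TGF-beta held 5 rises and 1 fall among 9: the latent TGF-beta binding protein genes Ltbp2 (1.96 ± 0.27) and Ltbp3 (0.70 ± 0.13), the integrin genes Itgb5 (0.89 ± 0.10) and Itgav (0.62 ± 0.10), whose products form a receptor that can free latent TGF-beta, and the convertase gene Furin (0.43 ± 0.10) were higher. Thrombospondin 1 (Thbs1), another activator of latent TGF-beta, fell by 0.59 with an SE of 0.08, from a mean of 60.6 to 40.1 RPKM. The lists that follow are short and had 1 rise each, too few to say anything of a list. In the list of other ligands and processing enzymes 1 of 6 rose, Bmp1, the protease that cuts procollagen and chordin (0.81 ± 0.14, adjusted p = 0.0171). Cd109, a TGF-beta co-receptor, was the 1 of 4 further receptors that rose (0.65 ± 0.11), and Twsg1, which binds BMPs together with chordin, the 1 of 7 secreted inhibitors (0.40 ± 0.08).

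Smad partners and regulators counted 3 rises (13.0%) and 1 fall (4.35%) among 23, shares near the 7.51% and 3.89% of all genes, so the count says nothing particular about this list. Pmepa1 (0.75 ± 0.15) and Ski (0.48 ± 0.11), both brakes on Smad2 and Smad3, and the phosphatase gene Ctdspl (0.66 ± 0.15) were higher. Usp15, a deubiquitinase of receptors and Smads, fell by 0.62 with an SE of 0.12, from 34.7 ± 2.47 to 22.6 ± 2.91 RPKM (SD, n = 3; adjusted p = 0.0221). Of 15 further target genes 5 rose (33.3%; 7.51% of all genes). This list shares Ltbp2 with the storage and release list, and Sp7, Runx2 and Col1a1 with the osteoblast markers, so these counts are not independent. The 5 rises are named next. They were Ltbp2, the homeobox gene Dlx5 (1.38 ± 0.18), the osteoblast regulators Sp7 (1.00 ± 0.13) and Runx2 (0.95 ± 0.11), and Hes1 (0.85 ± 0.15). Ctgf, a widely used readout of TGF-beta, measured 1.04 ± 0.30 on this scale and did not pass (adjusted p = 0.0637).

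**Figure D4:**
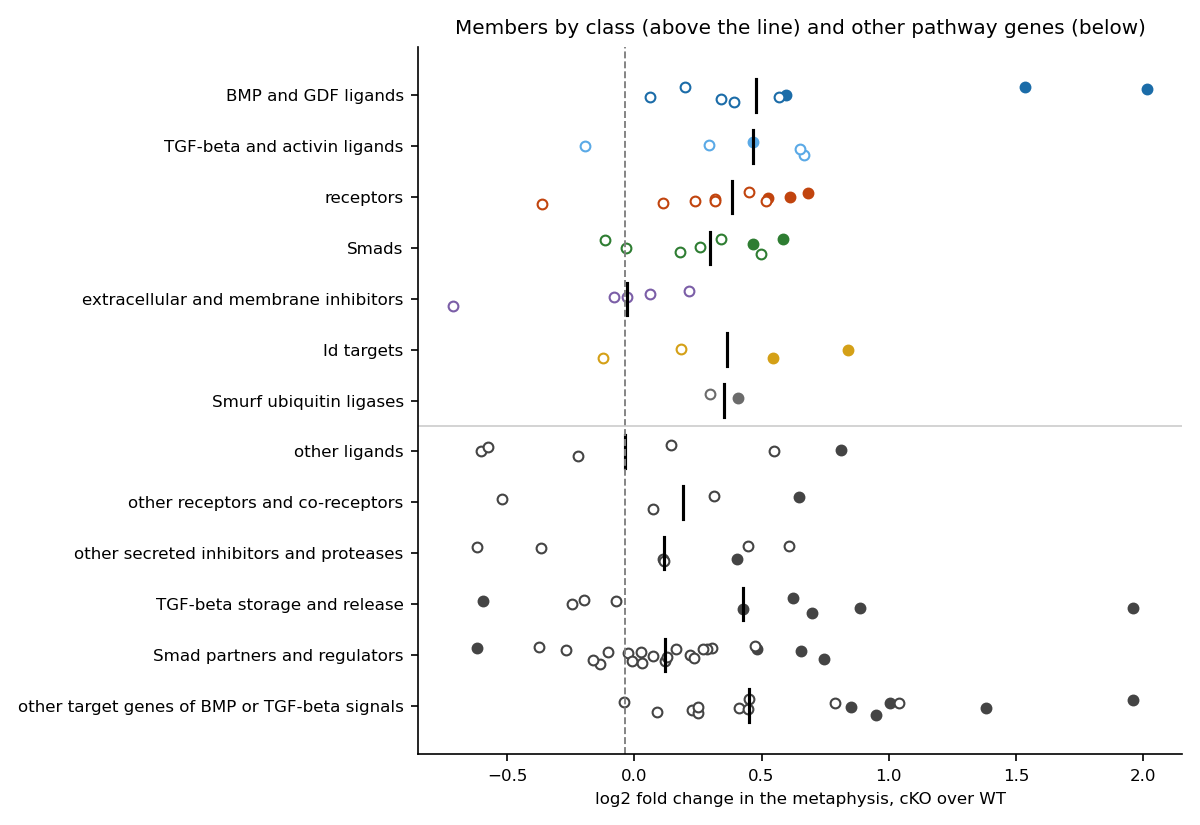
Log2 fold change in the metaphysis of every tested member by class and of the other pathway genes by list, with filled points past the adjusted threshold, a black tick for the list's median and a dashed line for the median of all genes (-0.036); Ltbp2 stands in 2 lists. Inhibitors and other ligands have medians close to that line, and the filled points left of 0 are Thbs1 and Usp15.

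In the diaphysis 0 of 43 members passed, as did 0 of the 12540 genes tested (0% called in either direction). At an unadjusted p under 0.05 limma had 0 members and 86 genes, 0.686%. The members' median log2 fold change was 0.054 and 24 of 43 were above 0, near the 0.0022 and 6355 of 12540 of all genes. Id3 was the member whose genotypes did not overlap (2.33% of members, 2.24% of all genes were higher in this way), with 54.4, 125 and 116 RPKM in WT and 147, 135 and 175 in cKO (0.72 ± 0.32). All cKO libraries were below all WT libraries for 0 members and 0.789% of all genes. Bmp3 measured 5.14, 17.4 and 24.2 RPKM in WT and 19.8, 31.3 and 29.7 in cKO (1.02 ± 0.53). Bmp8a measured 0.740, 4.04 and 6.76 RPKM in WT and 3.13, 7.15 and 9.997 in cKO (1.10 ± 0.77). For Bmp3 and Bmp8a the interval of the difference reached from below 0 to above the metaphysis value, at -0.21 to 2.25 and -0.69 to 2.90, so neither no change nor a rise of that size can be told from these libraries.

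WT replicate 1 set much of that spread. It was the lowest of the 6 diaphysis libraries for 30 of 43 members (69.8%), where it was the lowest for 27.8% of all genes. Tgfb3 measured 3.92 RPKM there against 16.6 and 21.5 in the other WT libraries, and 10.6, 14.5 and 12.2 in cKO. Tgfbr2 measured 14.2 RPKM there against 30.2 and 41.9, and 19.6, 35.96 and 33.2 in cKO. Bmp7 measured 0.598 RPKM there against 2.96 and 4.29, and 1.91, 2.001 and 1.67 in cKO. For Tgfb3 and Bmp7 every cKO library lay between WT replicate 1 and the other WT libraries, and for Tgfbr2 the cKO libraries overlapped the latter.

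Without WT replicate 1 the diaphysis values leaned the other way, and 0 members passed. All 3 cKO libraries were then below WT replicates 2 and 3 for 14 of 43 members (32.6%; 9.23% of all genes) and above them for 1 (2.33%; 8.71% of all genes). Bmp7, a BMP of kidney and skeletal development, had the smallest p at -0.91 ± 0.25 (limma, adjusted p = 0.624). In order of p, Fst (-0.71 ± 0.22), Tgfb3 (-0.61 ± 0.20), Bambi (-0.52 ± 0.18), Inhbb (-0.81 ± 0.31) and Chrd (-0.67 ± 0.26) followed, with adjusted p above the threshold. Id3 lay at 0.33 ± 0.18, and Bmp3 and Bmp8a at 0.36 ± 0.24 and 0.21 ± 0.44. In WT replicate 1 the osteoblast markers were lowest and the erythroid markers highest. The erythroid sum was 2490 RPKM there against 1251 and 1138 in the other WT libraries. The fit without it kept cKO replicate 1, the cKO library with the lowest osteoblast sum and the most globin. That library was the lowest in cKO for Fst, Tgfb3 and Inhbb, and not for Bmp7, Bambi and Chrd. No fit left out both libraries, and the part of these markers in the members' values was not tested.

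**Figure D5:**
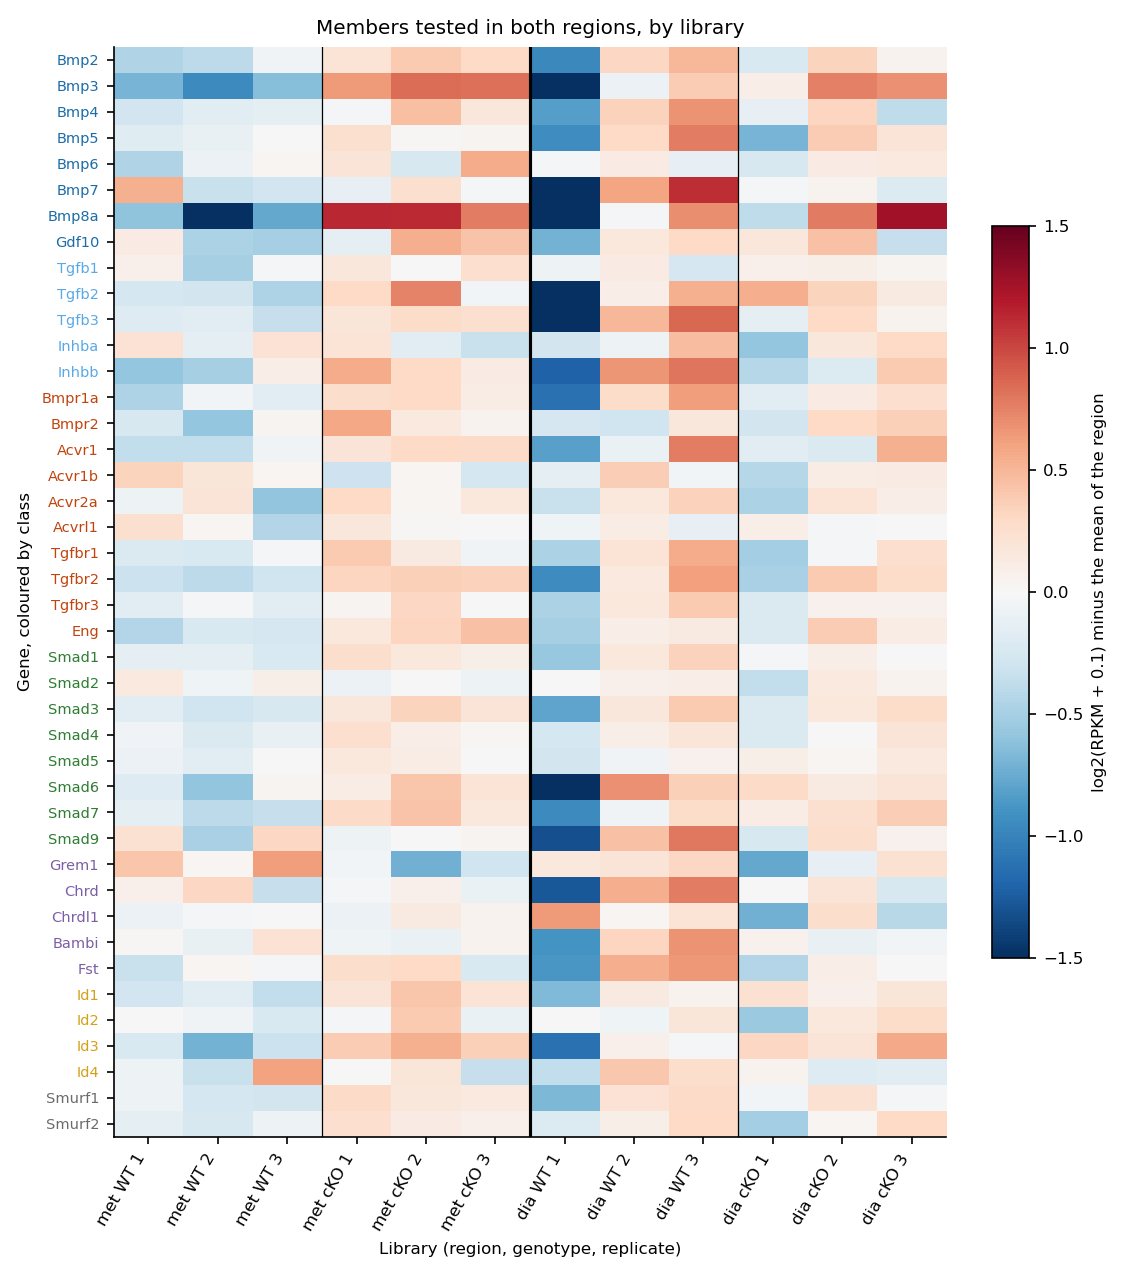
Log2(RPKM + 0.1) of each member tested in both regions, minus the gene's mean over the 6 libraries of the region, with one column per library and one row per gene; values past the ends of the scale take the end colour. Metaphysis cKO columns are mostly red and metaphysis WT columns mostly blue, while in the diaphysis the blue column is WT replicate 1 and not a genotype.

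Whether the genotype difference itself differed between regions was tested in 1 fit of the 12 libraries. Of 42 members 0 passed, as did 0% of 12321 genes, and at an unadjusted p under 0.05 there were 0 members and 495 genes (4.02%). The 12 rises of the metaphysis are therefore not shown to be particular to it. For Bmp3 the metaphysis difference exceeded that of the diaphysis by 0.51, with a 95% interval of -0.82 to 1.85, and for Tgfbr2 by 0.56 (-0.46 to 1.57). For Id3 the excess was 0.12 (-0.71 to 0.95). These intervals allow both equal effects and a clear gap.

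Without diaphysis WT replicate 1, limma called 2.01% of genes and 1 member, Tgfb3, whose difference between regions was 1.08 ± 0.20 (adjusted p = 0.0487). Bmp3 (1.17 ± 0.28, adjusted p = 0.0515), Inhbb (1.46 ± 0.39, adjusted p = 0.0584) and Bmp2 (0.95 ± 0.26, adjusted p = 0.0608) came next and did not pass. For Tgfb3, Inhbb and Bmp2 the diaphysis value without that library was below 0, and for Bmp3 it was above 0.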

How the data were processed

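The authors deposited, per the file headers, RPKM for each RefSeq transcript and library, in a table for each region. Bowtie 0.12.7.0, TopHat 1.3.2, Partek 6.6, CASAVA 1.8.2 and the build mm9 stand in the submitters' processing notes. The TruSeq kit does not mark strand, so antisense reads cannot be separated. A gene's transcripts were added up, and a gene was tested where at least 3 of the 6 libraries of a region reached 1 RPKM. limma 3.58.1 in R 4.3.3 fitted log2(RPKM + 0.1) with a mean-variance trend, 2-sided, region by region, and the difference between regions as a contrast over 12 libraries. Every adjusted p comes from these fits. Tested on simulated data, the metaphysis fit recovered 75% of log2 changes of 1 and 89% of changes of 2, and the diaphysis fit 31% and 79%. These fits also called 13 and 8 unchanged genes. Changes below 1, where most of the called members lie, were not simulated. Noise was drawn independently for each gene and library, so shifts shared by many genes of a library were not simulated either. Members and lists were chosen with earlier results of these data known. The naming rule took members past the threshold, the 2 highest WT levels of each class, and up to 6 other pathway genes per direction; other genes are named as examples chosen after their values were seen. Tables used Python 3.11.15 with pandas 2.3.3, figures matplotlib 3.10.9.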

Additional observations from a re-analysis of the deposited data

How the results depend on the processing

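No paired analysis was possible, as no label links libraries to each other. Each library title carries an identifier of its own, and what it identifies is not stated. The replicate numbers used here only name libraries. In the metaphysis 0 members passed when all 12 libraries were fitted together, and leaving out a library gave 3 to 10. Other settings gave 8 (no filter, 49 tested) to 13 (median shift), and 0 members were lower in each. In the diaphysis every setting run gave 0. The difference between regions gave 1 member without diaphysis WT replicate 1 and 0 in the other settings run.

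Some fold changes reversed sign when a library was left out; the cause was not tested. Metaphysis Bambi ranged from -0.15 to 0.0092. In the diaphysis the ranges were -0.35 to 0.38 for Bmp2, -0.61 to 0.60 for Tgfb3, -0.28 to 0.50 for Acvr1, -0.31 to 0.46 for Tgfbr2, -0.021 to 0.34 for Eng, -0.21 to 0.38 for Smad3 and -0.20 to 0.28 for Smurf1, each lowest without WT replicate 1. The difference between regions ranged from -0.13 to 1.08 for Tgfb3, -0.16 to 0.45 for Smad7 and -0.094 to 0.50 for Id3, each highest without diaphysis WT replicate 1.

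The 3 libraries per group and the spread of diaphysis WT limit precision, and members below 1 RPKM rest on few reads.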
